A study of Homo sapiens with 8 samples.

Results

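The transcripts described here are 10 genes of the NF-kB system, the 5 subunit genes REL, RELA, RELB, NFKB1 and NFKB2, and the 5 genes NFKBIA, NFKBIE, NFKBIZ, TNFAIP3 and BIRC3, most of which encode inhibitors that NF-kB itself induces. The 10 genes were taken by symbol from the 63677 genes of the deposited tables, and all 10 were found. RNA sequencing measured their transcripts in a pair of established human T-ALL lines (T-cell acute lymphoblastic leukaemia), DND-41 and MOLT-4. Each line was exposed for 3 h to 100 nM ACBI-1 or to DMSO, its solvent control, which gave 4 groups of 2 libraries (DND-41 with ACBI-1, DND-41 with DMSO, MOLT-4 with ACBI-1, MOLT-4 with DMSO). ACBI-1 is a degrader that recruits the VHL ubiquitin ligase to the BAF chromatin remodelling ATPases SMARCA2 and SMARCA4 and to PBRM1. No genetic change separates the groups within a line, and each line stands for 1 leukaemia only. Whether replicates are separate cultures is not stated in the labels, and the p-values then cover a spread that may be technical only.

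NF-kB is a family of dimeric transcription factors. In resting cells IkB proteins hold the dimers in the cytoplasm. Receptors on the cell surface, in T cells the antigen receptor among them, activate the IKK kinases, which mark IkB for destruction and free the dimers. NF-kB then switches on its own brakes, among them NFKBIA and TNFAIP3, so that the levels of these transcripts are often read as a sign of pathway activity. In T cells REL takes part in activation and in the response to antigen, and NF-kB can also protect leukaemic T cells from death.

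Total counts lay between 19867779 and 20082524 per library. Levels are given as CPM, the read count of a gene relative to its library total, after scaling between libraries, and a count of 0 allowed at most 0.151 CPM (3 reads, counting error only). The line labels matched the marker genes. TLX3 reads numbered 4611 to 7523 in DND-41 and never more than 9 in MOLT-4, whereas TAL1 reads numbered at most 4 in DND-41 and 722 to 796 in MOLT-4. The 12 T-lineage markers summed to between 5227 and 5401 CPM in every group, and the 8 myeloid markers to at most 0.690 CPM. Of the 12 T-lineage markers, 10 were nevertheless called between the lines in DMSO (3 higher and 7 lower in DND-41). Over all 15604 genes tested 64.4% were called in that contrast, 31.6% higher and 32.8% lower. DND-41 DMSO replicate 2 held a trace of reads from 25 genes high in MOLT-4, at a median of 0.568% of the MOLT-4 level. These genes were picked for a mean of at least 1000 reads in MOLT-4 and at most 3 reads in each other DND-41 library. Their low level in those libraries was therefore fixed by the choice and is no comparison. Where the reads came from was not tested. The DND-41 ACBI-1 replicates differed most from each other, with a mean chi-square over genes of 17.2 against 3.19 for the DND-41 DMSO pair. Mitochondrial protein-coding genes took 16.6% and 12.6% of the reads in the DND-41 ACBI-1 libraries against 14.5% and 14.3% in DND-41 DMSO.

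The promoters of the genes that passed the test of ACBI-1 in at least 1 line are shown first, because NF-kB recognises a short DNA motif and several of these genes are known targets of the factor they restrain. RefSeq promoter windows (GRCh38.p14, 250 bases before to 50 bases after the transcription start) were found for 8 of the 10 genes. The kappaB consensus, a motif of 10 bases, was searched on both strands, and overlapping matches were all counted. It was present in at least 1 window of 7 of these 8 genes, the exception being RELA, and in 9 of their 13 windows. Over all genes with a window 13.3% had a match, and over all 35116 windows 11.3% did. Capitals mark the matches, each sequence is written 5′ to 3′ on the strand of its gene, and a match is a description of letters and not evidence of binding. The windows are those of REL at chr2:60881324-60881623 (plus strand), NFKBIA at chr14:35404700-35404999 (minus strand), TNFAIP3 at chr6:137867009-137867308 (plus strand), BIRC3 at chr11:102317234-102317533 (plus strand) and the first of 2 windows of NFKBIZ at chr3:101827740-101828039 (plus strand).
REL: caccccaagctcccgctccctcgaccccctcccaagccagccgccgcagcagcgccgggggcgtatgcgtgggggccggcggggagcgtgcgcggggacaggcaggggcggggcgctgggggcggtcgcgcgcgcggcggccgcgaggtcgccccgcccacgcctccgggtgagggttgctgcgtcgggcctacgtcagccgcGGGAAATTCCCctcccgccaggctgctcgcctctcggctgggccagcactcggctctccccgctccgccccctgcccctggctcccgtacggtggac
NFKBIA: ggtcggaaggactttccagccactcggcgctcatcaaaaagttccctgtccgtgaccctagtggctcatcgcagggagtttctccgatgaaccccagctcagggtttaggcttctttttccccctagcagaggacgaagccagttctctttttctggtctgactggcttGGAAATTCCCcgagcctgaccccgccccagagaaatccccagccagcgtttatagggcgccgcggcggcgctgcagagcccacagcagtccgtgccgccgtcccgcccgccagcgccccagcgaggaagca
TNFAIP3: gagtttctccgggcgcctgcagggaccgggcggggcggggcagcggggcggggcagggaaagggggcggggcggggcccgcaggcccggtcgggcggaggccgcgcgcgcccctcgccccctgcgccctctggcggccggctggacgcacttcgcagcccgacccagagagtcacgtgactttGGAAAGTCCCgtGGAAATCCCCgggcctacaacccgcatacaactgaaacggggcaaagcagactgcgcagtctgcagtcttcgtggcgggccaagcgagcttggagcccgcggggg
BIRC3: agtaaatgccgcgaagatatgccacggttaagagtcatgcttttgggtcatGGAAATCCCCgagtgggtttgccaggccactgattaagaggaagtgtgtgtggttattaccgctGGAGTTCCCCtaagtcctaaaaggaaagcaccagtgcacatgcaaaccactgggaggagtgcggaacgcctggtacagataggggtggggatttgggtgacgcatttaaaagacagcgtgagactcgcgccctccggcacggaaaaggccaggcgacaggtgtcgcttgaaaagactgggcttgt
NFKBIZ: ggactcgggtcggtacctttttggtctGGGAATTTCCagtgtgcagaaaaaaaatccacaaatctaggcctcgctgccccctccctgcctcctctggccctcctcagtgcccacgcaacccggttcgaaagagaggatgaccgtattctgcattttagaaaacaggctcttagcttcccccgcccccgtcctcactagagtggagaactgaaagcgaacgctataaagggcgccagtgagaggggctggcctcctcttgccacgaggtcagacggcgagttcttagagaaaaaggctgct
In REL a pair of matches overlap, 1 on each strand, and begin 47 and 46 bases upstream of the start. The NFKBIA match lies 81 bases upstream on the opposite strand, and the matches of TNFAIP3 lie 67 and 55 bases upstream, also on the opposite strand. BIRC3 has matches 199 and 135 bases upstream, and the NFKBIZ match shown lies 223 bases upstream.

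The first question was how ACBI-1 moved these transcripts in DND-41. REL rose, TNFAIP3 rose by less, and NFKBIA and NFKBIZ fell, while RELA, RELB, NFKB1, NFKB2, NFKBIE and BIRC3 did not pass the test. Thus 4 of 10 genes were called in DND-41 (2 higher, 2 lower), where 9.83% of all 14019 genes tested were called, 3.78% higher and 6.05% lower. The libraries of the treatments did not overlap for 5 of the 10 genes, against 49% of all genes tested. The median log2 fold change of the 10 genes was 0.07, against 0.0029 over all genes tested. In MOLT-4, 3 of the 9 genes tested were called (1 higher, 2 lower), where 10.8% of all 14470 genes tested were called, 3.9% higher and 6.94% lower. BIRC3 rose and NFKBIA and TNFAIP3 fell there, the libraries did not overlap for 5 of the 9 genes, against 50.8% of all genes tested, and the median was -0.01, against -0.00097 over all genes tested. These are bulk samples, in which fewer cells with a transcript and less transcript per cell cannot be told apart.

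**Figure D1:**
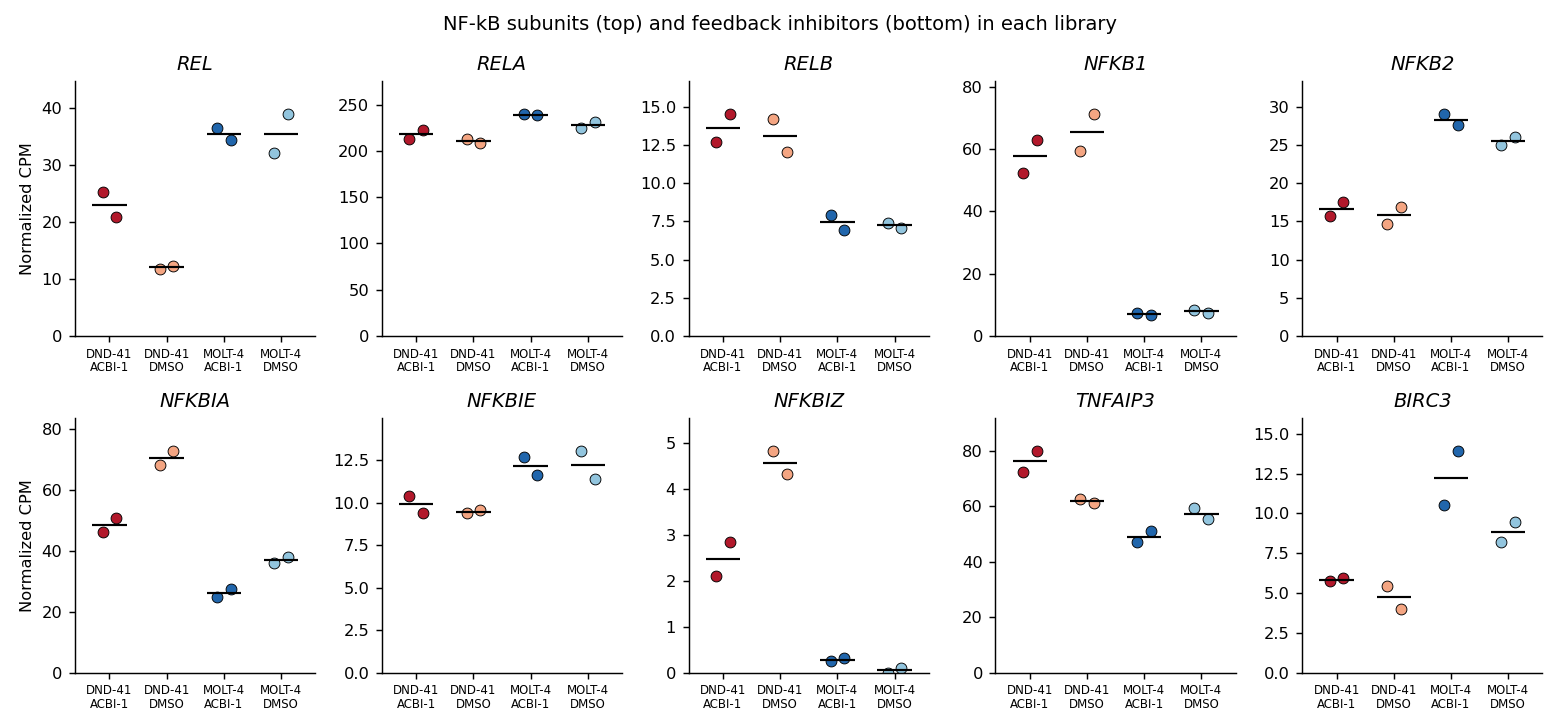
Normalized CPM of each of the 10 genes in each of the 8 libraries, with the subunit genes in the top panels and the other genes in the bottom panels. Points are libraries and bars are the means of 2, and each panel has its own axis from 0. REL in DND-41 stands at 25.2 and 20.8 CPM with ACBI-1 against 11.8 and 12.2 CPM with DMSO, and NFKBIA is lower with ACBI-1 in both lines.

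Among the subunits, REL (ENSG00000162924, chromosome 2), which encodes the activating subunit c-Rel, had 513 and 431 reads in the DND-41 ACBI-1 libraries, against 239 and 246 reads in the DND-41 DMSO libraries. Both ACBI-1 libraries stood well above both DMSO libraries. Its mean was 23.0 ± 3.12 CPM with ACBI-1 and 12 ± 0.31 CPM with DMSO (SD, n = 2 each), 1.93-fold or 0.95 ± 0.11 on the log2 scale (SE, edgeR adjusted p = 1.41e-07). In MOLT-4 the same gene had 722 and 668 reads with ACBI-1, against 621 and 752 reads with DMSO. There the ACBI-1 libraries lay between the DMSO libraries. The log2 fold change in MOLT-4 was -0.01 ± 0.09, with a 95% interval of -0.19 to 0.17 (edgeR adjusted p = 0.963). The responses of REL differed between the lines by 0.94 ± 0.15 on the log2 scale, with an interval of 0.64 to 1.24 (edgeR interaction, adjusted p = 0.000893). Of the 10 genes, 2 were called for such a difference, REL and TNFAIP3, where 0.641% of all 15604 genes tested were called, 0.442% with the higher response in DND-41 and 0.199% with the lower. The REL call in DND-41 was lost without DND-41 ACBI-1 replicate 1 (log2 fold change 0.80, edgeR adjusted p = 0.0969), where only 3 genes of the whole table were called, and it held without any of the other 3. Its difference between the lines was called whichever of the 8 libraries was left out (edgeR adjusted p between 2.99e-05 and 0.0228).

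The other 4 subunit transcripts did not pass the test in either line. RELA (ENSG00000173039, chromosome 11), the main activating subunit in most cells, had 4342 and 4612 reads in DND-41 ACBI-1 libraries against 4328 and 4198 in DND-41 DMSO libraries, and 4750 and 4643 reads in MOLT-4 ACBI-1 libraries against 4363 and 4473 in MOLT-4 DMSO libraries. Its interval was narrow, from -0.07 to 0.20 in DND-41 and from -0.06 to 0.18 in MOLT-4 on the log2 scale. NFKB1 (ENSG00000109320, chromosome 4), whose product is processed to the DNA-binding partner of RELA and REL, had 1068 and 1307 reads with ACBI-1 against 1208 and 1433 with DMSO in DND-41, groups that overlap (-0.16 ± 0.08, edgeR adjusted p = 0.267). In MOLT-4 NFKB1 had 148 and 133 reads with ACBI-1 against 161 and 144 with DMSO (-0.15 ± 0.14). RELB and NFKB2 (ENSG00000104856 on chromosome 19 and ENSG00000077150 on chromosome 10) encode the dimer of the slower non-canonical pathway. The RELB log2 fold change was 0.07 ± 0.12 (DND-41) and 0.03 ± 0.14 (MOLT-4), with overlapping groups. For NFKB2 it was 0.09 ± 0.11 in DND-41, where its groups overlapped, and 0.14 ± 0.09 in MOLT-4, where 576 and 538 reads with ACBI-1 stood above 485 and 505 reads with DMSO (edgeR adjusted p = 0.354). The intervals of the difference between the lines were -0.20 to 0.16 for RELA, -0.36 to 0.40 for RELB, -0.40 to 0.32 for NFKB1 and -0.36 to 0.20 for NFKB2.

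**Figure D2:**
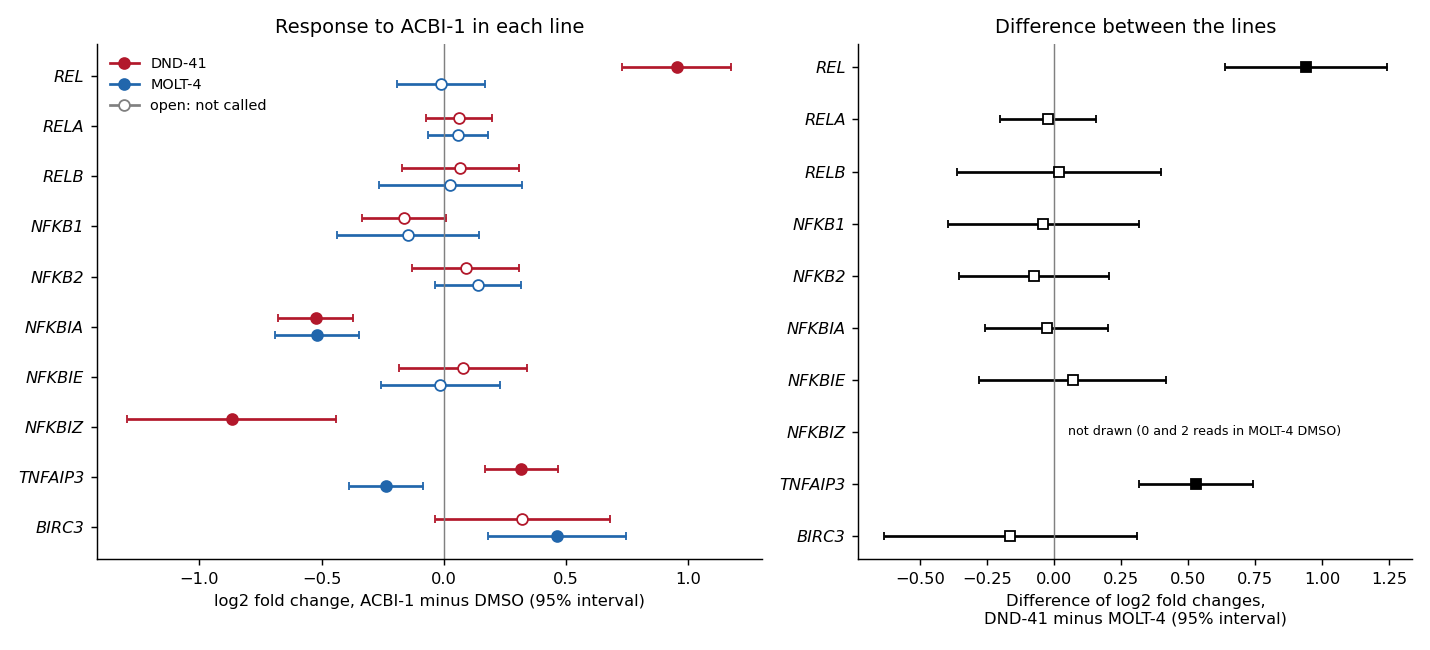
Log2 fold change of ACBI-1 against DMSO in each line (left) and the difference of these responses, DND-41 minus MOLT-4 (right), with 95% intervals from edgeR. Filled symbols passed the test. REL and TNFAIP3 are the genes whose difference was called, at 0.94 and 0.53, and the NFKBIA symbols of both lines lie at -0.52.

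NFKBIA (ENSG00000100906, chromosome 14) encodes IkB-alpha, the inhibitor that is destroyed on activation and rapidly made again. It had 943 and 1052 reads in DND-41 ACBI-1 libraries, against 1383 and 1467 reads in DND-41 DMSO libraries. In MOLT-4 it had 492 and 532 reads with ACBI-1, against 702 and 737 reads with DMSO. In both lines every ACBI-1 library was below every DMSO library. The mean was 48.5 ± 3.12 CPM with ACBI-1 and 70.5 ± 3.34 CPM with DMSO in DND-41 (log2 -0.52 ± 0.08, edgeR adjusted p = 7.41e-06). In MOLT-4 the mean was 26.1 ± 1.79 CPM with ACBI-1 and 37.1 ± 1.35 CPM with DMSO (log2 -0.52 ± 0.08, edgeR adjusted p = 8.30e-05). These correspond to levels 1.44-fold lower in DND-41 and 1.43-fold lower in MOLT-4. The difference of the responses was -0.03, with an interval of -0.26 to 0.20 (edgeR adjusted p = 0.9999). The call was lost in DND-41 without ACBI-1 replicate 1 (-0.46, edgeR adjusted p = 0.125), and in MOLT-4 without ACBI-1 replicate 1 (-0.45, adjusted p = 0.306) or ACBI-1 replicate 2 (-0.58, adjusted p = 0.141), settings under which edgeR called 0 genes of the MOLT-4 table, with 1874 and 2273 at an unadjusted p under 0.05.

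NFKBIZ (ENSG00000144802, chromosome 3) encodes an inducible nuclear IkB protein that helps NF-kB switch on a subset of its targets. It had 43 and 59 reads in DND-41 ACBI-1 libraries, against 98 and 87 reads in DND-41 DMSO libraries. Both ACBI-1 libraries were lower than both DMSO libraries. The log2 fold change was -0.87 ± 0.21, or 1.82-fold lower (edgeR adjusted p = 0.00517). DESeq2 did not call it (adjusted p = 0.0737), nor did edgeR without ACBI-1 replicate 1, ACBI-1 replicate 2 or DMSO replicate 1 of DND-41 (-0.67, -1.10 and -0.79, adjusted p = 0.223, 0.0878 and 0.0696). In MOLT-4 it had 5 and 6 reads with ACBI-1, against 0 and 2 reads with DMSO, too few to be tested. Summed over the replicates and per total reads, the ACBI-1 to DMSO ratio in MOLT-4 was 5.49, with an exact 95% interval of 1.199 to 51.0 that covers counting error only. The difference of the NFKBIZ responses was not called (edgeR adjusted p = 0.175) and rests on these few reads.

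TNFAIP3 (ENSG00000118503, chromosome 6), a ubiquitin-editing enzyme that shuts down signalling below TNF and antigen receptors, moved in opposite directions in the lines. It had 1477 and 1658 reads in DND-41 ACBI-1 libraries, against 1273 and 1228 reads in DND-41 DMSO libraries. In MOLT-4 it had 933 and 990 reads with ACBI-1, against 1152 and 1068 reads with DMSO. The groups did not overlap in either line, with ACBI-1 above DMSO in DND-41 and below it in MOLT-4. The log2 fold change was 0.32 ± 0.07 in DND-41 (edgeR adjusted p = 0.00349) and -0.24 ± 0.07 in MOLT-4 (edgeR adjusted p = 0.0361). The responses differed by 0.53 ± 0.10, with an interval of 0.31 to 0.74 (edgeR adjusted p = 0.00881). This difference was lost without DND-41 DMSO replicate 2 (0.51, edgeR adjusted p = 0.0633) or MOLT-4 ACBI-1 replicate 1 (0.51, adjusted p = 0.0770), and kept its sign throughout. The DND-41 rise lost its call without any 1 of its libraries (0.38 and 0.25 without ACBI-1 replicates 1 and 2, 0.33 and 0.29 without DMSO replicates 1 and 2, edgeR adjusted p between 0.0554 and 0.135). The MOLT-4 fall lost its call with DESeq2 (adjusted p = 0.184), with scaling by total counts (edgeR adjusted p = 0.0897), in a fit of all 8 libraries (adjusted p = 0.0571), and without MOLT-4 ACBI-1 replicates 1 or 2 or DMSO replicate 1 (-0.18, -0.28 and -0.18, edgeR adjusted p = 0.469, 0.256 and 0.232). TNFAIP3 shares 95 of its 5051 exonic bases in GENCODE 29 with the antisense gene AL357060.1, and the strand setting of the counting is not given. That gene had 491 and 545 reads with ACBI-1 against 491 and 426 with DMSO in DND-41, and 461 and 490 reads with ACBI-1 against 554 and 559 with DMSO in MOLT-4. Its part in the TNFAIP3 values was not tested.

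BIRC3 (ENSG00000023445, chromosome 11) encodes a ubiquitin ligase of the TNF receptor complex that also restrains the non-canonical kinase. In MOLT-4 it had 209 and 271 reads with ACBI-1, against 159 and 183 reads with DMSO. Both ACBI-1 libraries were above both DMSO libraries, and the log2 fold change was 0.46 ± 0.14, or 1.38-fold (edgeR adjusted p = 0.0281). DESeq2 did not call it (adjusted p = 0.184), nor did edgeR without MOLT-4 ACBI-1 replicates 1 or 2 or DMSO replicate 1 (0.65, 0.26 and 0.36, adjusted p = 0.318, 0.465 and 0.121). In DND-41 it had 117 and 123 reads with ACBI-1, against 111 and 80 reads with DMSO. The groups were again apart by a few reads, at 0.32 ± 0.18 (edgeR adjusted p = 0.301), and the difference of the responses was -0.16 with an interval of -0.64 to 0.31. NFKBIE (ENSG00000146232, chromosome 6), which encodes IkB-epsilon, had overlapping groups in both lines, with 212 and 195 reads with ACBI-1 against 190 and 193 with DMSO in DND-41, and 252 and 226 against 253 and 220 in MOLT-4. Its log2 fold change was 0.08 ± 0.13 in DND-41 and -0.01 ± 0.12 in MOLT-4.

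The lines were then set against each other in DMSO, which compares a pair of cell lines and no class of leukaemia. Of the 10 genes, 8 were called, 4 higher and 4 lower in DND-41, where 64.4% of all 15604 genes tested were called, 31.6% higher and 32.8% lower. The libraries of the lines did not overlap for any of the 10 genes, against 81.8% of all genes tested. Higher in DND-41 were NFKB1, NFKBIZ, NFKBIA and RELB, and lower were REL, BIRC3, NFKB2 and NFKBIE.

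NFKB1 averaged 65.4 ± 8.25 CPM in DND-41 and 7.87 ± 0.61 CPM in MOLT-4, a log2 difference of 3.05 ± 0.11, or 8.30-fold (edgeR adjusted p = 3.41e-19). Its counterpart in the non-canonical pathway, NFKB2, went the other way, with 15.8 ± 1.60 CPM in DND-41 and 25.6 ± 0.78 CPM in MOLT-4 (-0.69 ± 0.10, edgeR adjusted p = 5.32e-07). REL averaged 12 ± 0.31 CPM in DND-41 and 35.4 ± 4.85 CPM in MOLT-4, 2.95-fold lower in DND-41 (-1.56 ± 0.11, edgeR adjusted p = 5.44e-13). RELB averaged 13.1 ± 1.53 CPM in DND-41 and 7.25 ± 0.24 CPM in MOLT-4 (0.85 ± 0.13, edgeR adjusted p = 2.00e-06). RELA, at 211 ± 3.34 CPM in DND-41 and 228 ± 4.47 CPM in MOLT-4, was not called (-0.11 ± 0.06, edgeR adjusted p = 0.113).

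Among the genes other than the subunits, NFKBIZ had 98 and 87 reads in DND-41 DMSO and 0 and 2 reads in MOLT-4 DMSO. The ratio of the summed reads per total was 91.8, with an exact 95% interval of 25.1 to 764 for counting error (edgeR adjusted p = 4.21e-12). NFKBIA was 1.90-fold higher in DND-41 (0.92 ± 0.08, edgeR adjusted p = 2.62e-11). BIRC3 averaged 4.72 ± 1.06 CPM in DND-41 and 8.83 ± 0.89 CPM in MOLT-4 (-0.90 ± 0.17, edgeR adjusted p = 3.39e-05). NFKBIE averaged 9.48 ± 0.16 CPM in DND-41 and 12.2 ± 1.18 CPM in MOLT-4 (-0.37 ± 0.12, edgeR adjusted p = 0.00982), and lost its call without DND-41 DMSO replicate 1 (-0.35, adjusted p = 0.0533) or MOLT-4 DMSO replicate 1 (-0.27, adjusted p = 0.126). TNFAIP3, at 61.9 ± 1.22 CPM in DND-41 and 57.3 ± 2.95 CPM in MOLT-4, was not called (0.11 ± 0.07, edgeR adjusted p = 0.191).

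To compare the genes with each other, CPM was divided by the exonic length of each gene in kilobases (RPKM). RELA was the most abundant of the 10 transcripts in every group, at 39.8 ± 1.18 RPKM in DND-41 ACBI-1, 38.6 ± 0.61 in DND-41 DMSO, 43.8 ± 0.12 in MOLT-4 ACBI-1 and 41.7 ± 0.82 in MOLT-4 DMSO (SD, n = 2 each). NFKBIA came next in all 4 groups and TNFAIP3 after it, at 15.1 ± 1.04, 12.2 ± 0.24, 9.70 ± 0.53 and 11.3 ± 0.58 RPKM in the same order of groups. In DND-41 with ACBI-1 the order went on with NFKB1, RELB, NFKBIE, NFKB2, REL, BIRC3 and NFKBIZ, and in DND-41 with DMSO NFKBIZ stood above BIRC3. NFKBIE and NFKB2 were the neighbours whose libraries overlapped in both DND-41 groups. In MOLT-4 with ACBI-1 the order after TNFAIP3 was NFKB2, NFKBIE, REL, RELB, BIRC3, NFKB1 and NFKBIZ, and in MOLT-4 with DMSO NFKB1 stood above BIRC3. REL and RELB overlapped in both MOLT-4 groups, and NFKB1 and BIRC3 overlapped in MOLT-4 DMSO. With the length of the longest coding transcript instead, RELA and NFKBIA kept the first ranks, TNFAIP3 and NFKB1 changed places in DND-41 DMSO, and so did NFKBIZ and REL. NFKBIE and NFKB2 changed places in both DND-41 groups, and REL and RELB in both MOLT-4 groups. REL stood at 1.74 ± 0.24 RPKM in DND-41 ACBI-1, 0.911 ± 0.024 in DND-41 DMSO, 2.69 ± 0.11 in MOLT-4 ACBI-1 and 2.69 ± 0.37 in MOLT-4 DMSO. Of the 13170 exonic bases of REL, 5702 are shared with AC010733.2 on the same strand, a gene with 0 reads in every library. Whether reads over the shared bases were counted for REL was not tested. If they were not, the RPKM and rank of REL are understated.

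**Figure D3:**
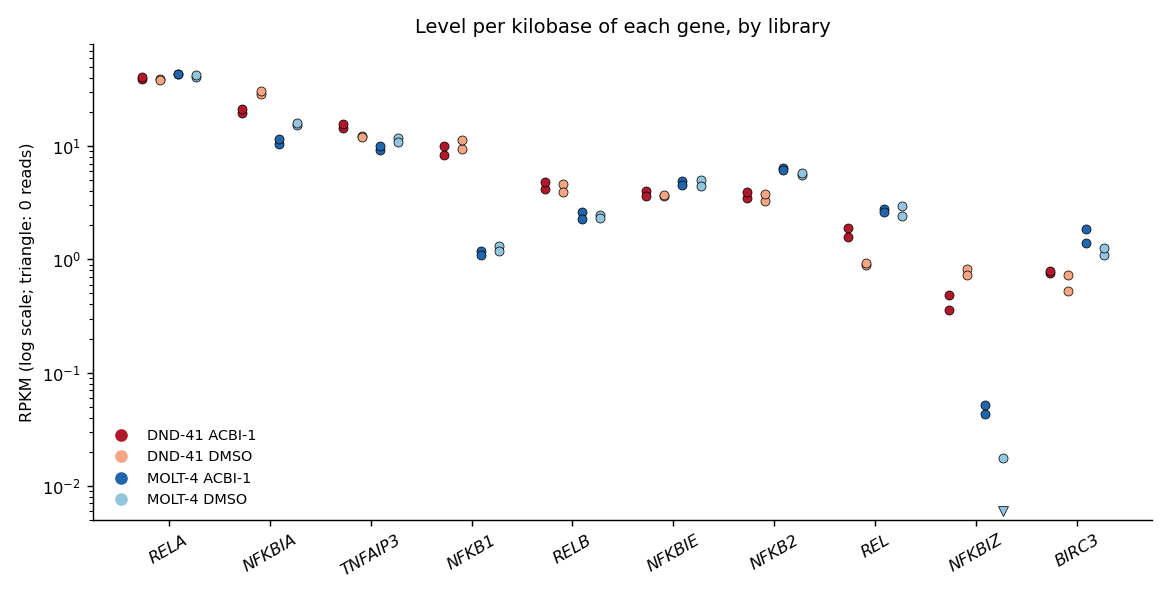
RPKM of each gene in each library on a log axis, with the 4 groups of libraries side by side for each gene. The triangle marks the MOLT-4 DMSO library without an NFKBIZ read. RELA lies highest in every group, and NFKB1 and NFKBIZ show the widest gaps between the lines.

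The balance of subunits was described from the same values. RELA made up between 65.6% and 68.5% of the summed subunit RPKM in DND-41 libraries and between 77.1% and 78.2% in MOLT-4 libraries. The share of REL was 3.36% and 2.59% in DND-41 ACBI-1, 1.56% and 1.59% in DND-41 DMSO, 4.86% and 4.67% in MOLT-4 ACBI-1, and 4.59% and 5.40% in MOLT-4 DMSO. In DND-41 every ACBI-1 library was above every DMSO library, but below every MOLT-4 library. These shares, and the ratios below, use the summed exon length and depend on it. For REL this length includes the 5702 bases shared with AC010733.2, so its share may be understated too. With the longest coding transcript, REL stood at 1.07 and RELA at 66.3 RPKM in DND-41 DMSO, and at 2.04 and 68.4 RPKM in DND-41 ACBI-1. In MOLT-4 they stood at 3.15 and 71.7 RPKM with DMSO, and at 3.14 and 75.1 RPKM with ACBI-1. NFKB1 exceeded NFKB2 in DND-41, by a ratio of 2.38 and 2.58 with ACBI-1 and 2.91 and 3.01 with DMSO. In MOLT-4 NFKB2 exceeded NFKB1 instead, by a ratio of 5.43 and 5.64 with ACBI-1 and 4.20 and 4.89 with DMSO. The ratio of NFKB1 to NFKB2 was thus lower with ACBI-1 than with DMSO in every library of both lines, although neither gene was called in either line. How often the ratio of a pair of genes separates the groups in this way was not tested. For single genes the groups did not overlap in 49% (DND-41) and 50.8% (MOLT-4) of all genes tested.

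**Figure D4:**
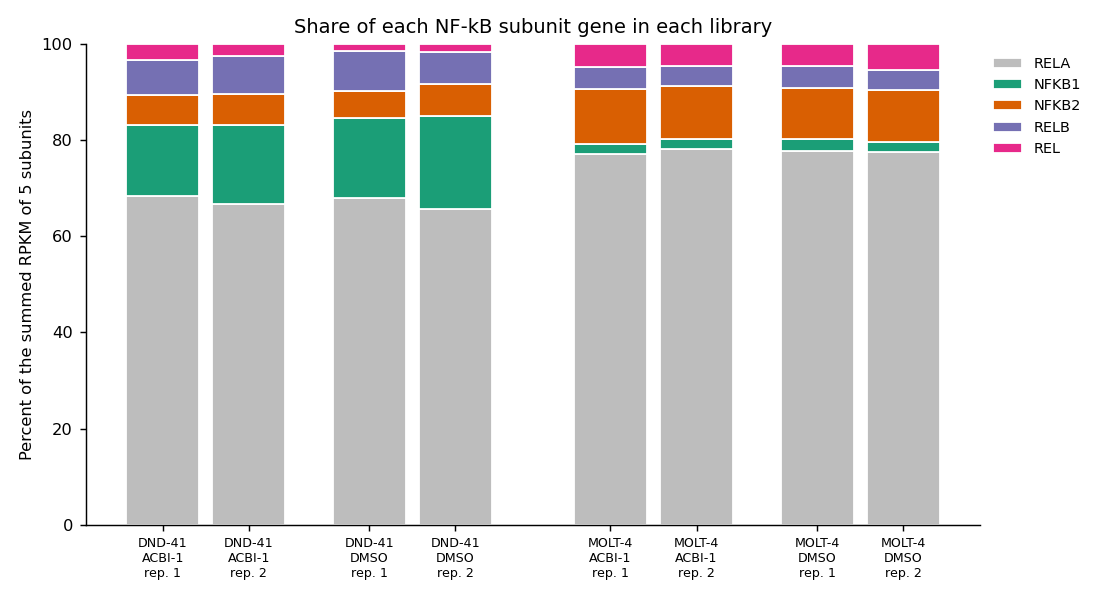
Share of each subunit gene in the summed RPKM of the 5 subunit genes, by summed exon length, 1 bar per library. The REL segment is 3.36% and 2.59% in DND-41 ACBI-1 against 1.56% and 1.59% in DND-41 DMSO, and the NFKB1 and NFKB2 segments differ between the lines.

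The rest of the pathway was read from 4 lists of further genes. Among receptors and receptor adaptors, 5 of 14 tested genes were called in DND-41 (1 higher, 4 lower) and 3 of 12 in MOLT-4 (all lower), where 9.83% of all genes tested were called in DND-41 and 10.8% in MOLT-4. TNFRSF1A, the main receptor for TNF, averaged 37.6 ± 1.82 CPM with ACBI-1 and 70.0 ± 4.32 CPM with DMSO in DND-41 (-0.88 ± 0.08, edgeR adjusted p = 7.63e-10), and 40.9 ± 0.54 CPM with ACBI-1 and 92.8 ± 3.18 CPM with DMSO in MOLT-4 (-1.19 ± 0.07, edgeR adjusted p = 5.10e-12). TNFRSF8, which encodes CD30, also fell in both lines (-0.38 ± 0.08 in DND-41 and -0.49 ± 0.12 in MOLT-4), but DESeq2 did not call it in MOLT-4 (adjusted p = 0.0828). TNFRSF1B, the second TNF receptor, fell in DND-41 (-0.83 ± 0.12) and had at most 3 reads in any MOLT-4 library. CD28, the costimulatory receptor of T cells, rose in DND-41 (0.45 ± 0.10, edgeR adjusted p = 0.00339) and stood at -0.00071 ± 0.10 in MOLT-4, with no call for the difference (0.43 ± 0.15, edgeR adjusted p = 0.309) unless MOLT-4 DMSO replicate 1 was left out (0.60, adjusted p = 0.0462). The list medians were -0.16 in DND-41 and -0.02 in MOLT-4, against 0.0029 and -0.00097 over all genes tested.

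Of the IKK kinases, TRAF adaptors and ubiquitin enzymes, 1 of 25 was called in DND-41 (lower) and 4 of 25 in MOLT-4 (1 higher, 3 lower), where 9.83% and 10.8% of all genes tested were called, and the list medians were 0.01 and -0.02. The list held 27 genes. IKBKG and IKBKE have more than 1 entry under their symbol, and the entries used had 0 reads in every library. They were therefore not tested, and their other entries were not read. RNF31, the catalytic subunit of the linear ubiquitin ligase, was called lower in both lines by edgeR (-0.25 ± 0.08 in DND-41 and -0.26 ± 0.07 in MOLT-4), but in neither by DESeq2 (adjusted p = 0.138 and 0.0778), and the DND-41 call was lost whichever library was left out (edgeR adjusted p between 0.103 and 0.399). TRAF5 and OTULIN, a signalling adaptor and a linear deubiquitinase, fell in MOLT-4 (-0.56 ± 0.10 and -0.35 ± 0.09) and stood at -0.29 ± 0.13 and -0.15 ± 0.09 in DND-41. BIRC2, the close relative of BIRC3, rose in MOLT-4 (0.39 ± 0.09, edgeR adjusted p = 0.00276) and stood at 0.27 ± 0.09 in DND-41 (edgeR adjusted p = 0.0526), where it was called with total-count scaling (adjusted p = 0.0425) and with the replicate block (adjusted p = 0.00431). The OTULIN call in MOLT-4 was lost with DESeq2 (adjusted p = 0.107). Of the other IkB family genes, edgeR called 0 of 4 in DND-41 (1 at an unadjusted p under 0.05, and DESeq2 called 0) and 1 of 4 in MOLT-4, NFKBID (-0.32 ± 0.10), which stood at -0.31 ± 0.13 in DND-41 (edgeR adjusted p = 0.135). The NFKBID call in MOLT-4 was lost with DESeq2 (adjusted p = 0.213), with total-count scaling (edgeR adjusted p = 0.0604) and whichever library was left out (edgeR adjusted p between 0.0595 and 0.352), while NFKBIB, IKBIP and NFKBIL1 lay between -0.14 and 0.16 in the lines.

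Of the further known NF-kB target genes, 10 of 19 tested were called in DND-41 (2 higher, 8 lower) and 9 of 15 in MOLT-4 (4 higher, 5 lower), where 3.78% of all genes tested were higher and 6.05% lower in DND-41, and 3.9% higher and 6.94% lower in MOLT-4. The list medians were -0.10 in DND-41 and 0.06 in MOLT-4. IER3, an early survival gene, averaged 1.43 ± 0.09 CPM with ACBI-1 and 6.06 ± 0.56 CPM with DMSO in DND-41, 4.17-fold lower (-2.06 ± 0.22), and it was 2.52-fold lower in MOLT-4 (-1.33 ± 0.18). TNF, the cytokine, averaged 12.6 ± 0.71 CPM with ACBI-1 and 26.5 ± 1.06 CPM with DMSO in DND-41 (-1.06 ± 0.10, edgeR adjusted p = 3.78e-09). In MOLT-4 it had 2 and 3 reads with ACBI-1 against 10 and 7 with DMSO. GADD45B, a stress-response gene, rose in DND-41, at 117 ± 11.5 CPM with ACBI-1 and 59.6 ± 4.19 CPM with DMSO (0.99 ± 0.08, edgeR adjusted p = 3.42e-11), and stood at 0.26 ± 0.15 in MOLT-4. IRF1, a transcription factor of the interferon response, rose in both lines (0.60 ± 0.07 and 0.37 ± 0.06). Every call named in these lists was lost in DND-41 without ACBI-1 replicate 1, and every one in MOLT-4 without ACBI-1 replicate 1 or without ACBI-1 replicate 2, settings that left 3 called genes in the DND-41 table and 0 in the MOLT-4 table. Without MOLT-4 DMSO replicate 1 the MOLT-4 calls of TNFRSF8, OTULIN and RNF31 were lost too (edgeR adjusted p = 0.0771, 0.0559 and 0.0652). Without DND-41 ACBI-1 replicate 2 the DND-41 calls of TNFRSF1B, TNFRSF8 and CD28 were lost (edgeR adjusted p = 0.0563, 0.0750 and 0.103), and CD28 also without DND-41 DMSO replicate 2 (adjusted p = 0.0717).

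**Figure D5:**
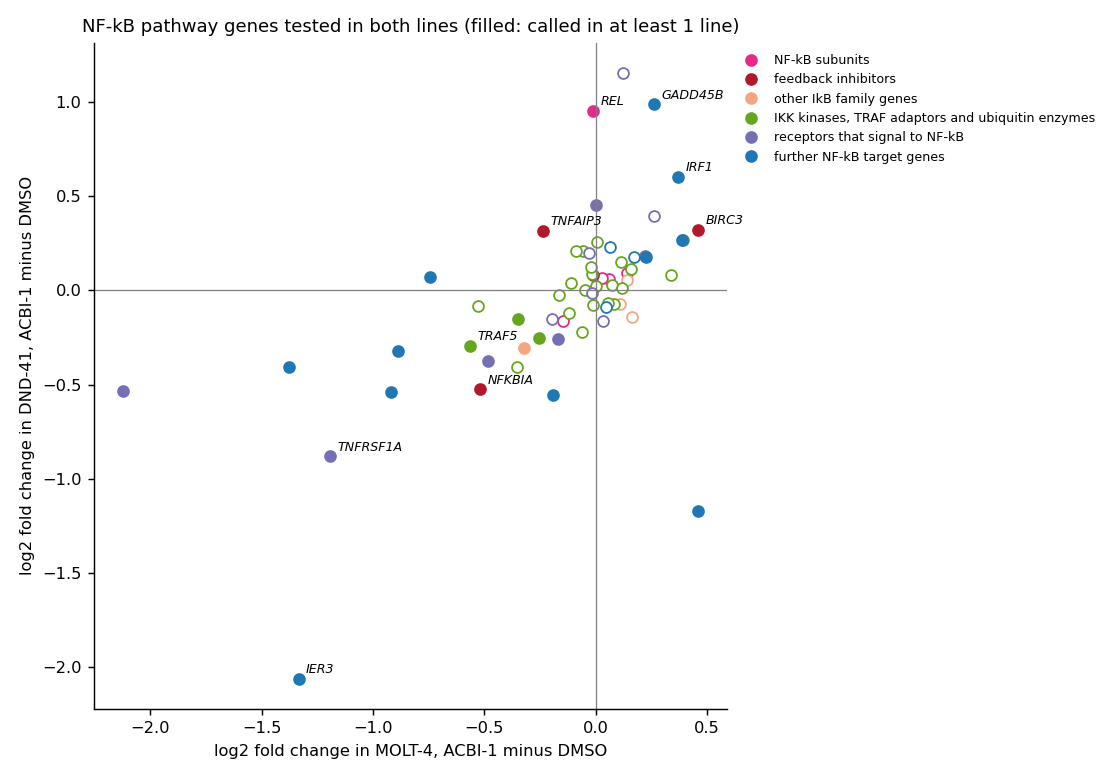
Log2 fold change with ACBI-1 in DND-41 (vertical) against that in MOLT-4 (horizontal) for the genes of the pathway tested in both lines, coloured by list. Filled points were called in at least 1 line. REL lies at 0.95 in DND-41 against -0.01 in MOLT-4, TNFAIP3 lies at 0.32 against -0.24, and NFKBIA, TNFRSF1A and IER3 lie below 0 in both.

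Cell type markers were read beside these results. Of the T-lineage markers, 2 of 11 tested were called in DND-41, CD2 and CD3G, at 0.45 and 0.42 on the log2 scale. In MOLT-4, 3 of 12 were called (1 higher, 2 lower). Over all genes tested 9.83% were called in DND-41 and 10.8% in MOLT-4. In DND-41 the summed fibroblast markers were at 33.2 to 34.1 CPM with ACBI-1 and 47.0 to 57.7 CPM with DMSO, the summed NK cell markers at 20.1 to 22.5 CPM with ACBI-1 and 26.3 to 27.0 CPM with DMSO, and the summed B cell markers at 1525 to 1674 CPM with ACBI-1 and 1678 to 1760 CPM with DMSO. Nearly all of the B cell sum was CD79A, at 1523 and 1672 CPM with ACBI-1 and 1675 and 1758 CPM with DMSO (edgeR adjusted p = 0.650), while MS4A1, PAX5 and CD22 had at most 1 read in any DND-41 library. In the fibroblast list 1 of 4 genes was tested, PDGFRB, and it fell, as did the 1 gene of 4 tested in the NK cell list, NKG7. In the fibroblast list 1 gene was at 0 reads in all 8 libraries, and so was 1 in the B cell list. In MOLT-4 the fibroblast, NK cell and B cell lists held no called gene, but only 2, 1 and 2 of their genes were tested. The epithelial list held 1 tested gene in MOLT-4, which was not called, and 0 in DND-41. The part of these marker genes in the results was not tested.

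The pattern of REL over the 8 libraries was matched against 10257 genes with a mean of at least 5 CPM, by the root mean square difference of log2 CPM centred on the mean of each gene. Nearest were CPEB4, a regulator of translation (0.205, r = 0.98), SMN2 (0.206, r = 0.95), whose reads cannot be separated from its near-identical copy SMN1, and C19orf66, an interferon-induced antiviral gene (0.217, r = 0.95). CPEB4 averaged 7.18 CPM in DND-41 ACBI-1, 3.17 in DND-41 DMSO, 14.8 in MOLT-4 ACBI-1 and 10.9 in MOLT-4 DMSO. In the same order of groups, SMN2 averaged 4.01, 2.92, 7.45 and 8.11 CPM, and C19orf66 averaged 40.6, 32.1, 73.4 and 73.0 CPM. The measure takes in the gap between the lines, so a near gene need not share the ACBI-1 response of REL. These likenesses are descriptions over 8 libraries that all genes share.

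In the authors' deposited table for DND-41 the adjusted p was 6.89e-07 for REL, 1.77e-05 for NFKBIA and 0.0252 for TNFAIP3, but 0.116 for NFKBIZ. In the authors' deposited table for MOLT-4, whose sign runs DMSO minus ACBI-1 when read against the counts, the adjusted p was 0.00107 for NFKBIA, 0.221 for BIRC3 and 0.224 for TNFAIP3.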

How the data were processed

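Strand-specific libraries of total RNA from DND-41 and MOLT-4 cells were sequenced, per the labels' protocols, and titles gave the line, treatment and replicate number of each library. Raw read counts, without normalization, were deposited in 1 table for each line. The submitters' processing notes name STAR 2.5.2a, featureCounts, DESeq2 1.12.4 and hg19. Which annotation and strand setting the counting used is not given in the sources used here. Per the file headers, the authors also deposited 1 comparison per line holding a mean normalized signal, log2 fold changes with standard errors, a test score and p-values. The sign of these tables was read from their correlation across genes with the fold changes computed from the counts.

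The quasi-likelihood F-test of edgeR 4.0.16 (with limma 3.58.1 under R 4.3.3) was applied to the counts after TMM scaling and filterByExpr, its default filter for low counts. The 4 libraries of each line had a fit of their own, and the difference of the responses and the contrast of the lines came from 1 joint fit of the 8 libraries. Benjamini-Hochberg adjustment ran over every gene tested, never over the 10 genes, and the threshold was 0.05. Log2 values are ACBI-1 minus DMSO, or DND-41 minus MOLT-4, with their SE, and intervals are 95% intervals of the same fit. CPM was scaled by TMM over the 8 libraries, and RPKM used the summed exon length in GENCODE 29, which covered 82.5% of the genes by identifier. The script was tested on simulated data. An exact permutation test of 2 against 2 libraries cannot go below 0.333 (two-sided), so none was used. On average over genes, replicates differed by more than sampling noise in each group, with a mean chi-square of at least 3.19. The 8 libraries were kept as separate samples.

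The 10 genes, the lists of further pathway genes and the markers were chosen with earlier results of these data known. All 10 genes are reported, and from each further list the 4 genes with the smallest p in either line are named. A further list fixed with them is not reported here. CD2, CD3G, CD79A, MS4A1, PAX5, CD22, PDGFRB and NKG7 were named after their values were seen. The alternatives were DESeq2 1.42.0, edgeR with the DESeq2 size factors or with total counts in place of TMM, and testing without the low-count filter. Others were a threshold of 1%, a minimum fold of 1.5, a replicate block, 1 fit of all 8 libraries, and leaving out each library. In a further alternative, 0.568% of the mean MOLT-4 counts was subtracted from DND-41 DMSO replicate 2. The longest coding transcript as gene length was added after seeing the data.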

Additional observations from a re-analysis of the deposited data

Results flagged for a closer look

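The response to ACBI-1 differed between the lines for 3 of the genes named, by the interaction of line and treatment in edgeR. For REL the difference, DND-41 minus MOLT-4, was 0.94 on the log2 scale (adjusted p = 0.000893), with both DND-41 ACBI-1 libraries above both DMSO libraries and overlapping groups in MOLT-4. For TNFAIP3 it was 0.53 (adjusted p = 0.00881), with the ACBI-1 libraries above the DMSO libraries in DND-41 and below them in MOLT-4. For GADD45B it was 0.70 (adjusted p = 0.0488), with 2211 and 2590 reads with ACBI-1 against 1149 and 1259 with DMSO in DND-41, and 132 and 160 against 129 and 110 in MOLT-4. In its list 3 of 20 tested genes were called for this difference, against 0.641% of all genes tested. The GADD45B difference was between 0.59 and 0.88 with a library left out, and was no longer called without 6 of the 8 libraries (adjusted p between 0.0576 and 0.365), the exceptions being DND-41 ACBI-1 replicate 1 and DND-41 DMSO replicate 2.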

How the results depend on the processing

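The directions of the called results for the 10 genes held under every alternative run, but the calls did not. In DND-41 the count of called genes was 664 with DESeq2, 2 without a filter on low counts, 763 at a threshold of 1%, 35 with a minimum fold of 1.5 and 2230 with the replicate block, against 1378, and it was 3 to 632 with a library left out. Of the 10 genes 4 were called there, but 0 without a filter (4 at an unadjusted p under 0.05), 0 with the minimum fold (2 so), and 0 to 3 with a library left out. In MOLT-4 the counts were 754 with DESeq2, 39 without a filter, 879 at 1%, 74 with the minimum fold and 2228 with the replicate block, against 1568, and 0 to 1430 with a library left out. Of the 10 genes 3 were called there, but 1 with DESeq2, 0 without a filter (3 at an unadjusted p under 0.05), 1 at 1%, 0 with the minimum fold (0 so), and 0 to 3 with a library left out. For the difference of the responses 100 genes were called, but 13 without a filter, 50 at 1%, 6 with the minimum fold, 302 with the replicate block and 49 to 138 with a library left out. Of the 10 genes 2 were called for it, but 0 without a filter (3 at an unadjusted p under 0.05), 0 with the minimum fold (2 so), and 1 to 2 with a library left out. Between the lines in DMSO 10050 genes were called and 4627 with the minimum fold, and of the 10 genes 8 were called, but 6 with the minimum fold, which lost NFKB2 (adjusted p = 0.144) and NFKBIE (adjusted p = 1), and 7 to 8 with a library left out. In DND-41, DESeq2 called 3 of the 10 genes. In MOLT-4, scaling by total counts called 2 of the 9 tested, and the fit of all 8 libraries called 2 of 10. The cause of these moves was not tested.

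Results that were not called changed sign as follows (log2). In MOLT-4, scaling by total counts put REL at 0.016 and NFKBIE at 0.013. CD28 in MOLT-4 was at 0.0038 with DESeq2, 0.0037 with its size factors in edgeR, 0.026 with total counts, 0.0018 without a filter, 0.0025 with the replicate block and 0.0081 in the fit of all 8 libraries. With each library left out, RELB in DND-41 ranged from -0.052 to 0.19 and NFKB2 in DND-41 from -0.014 to 0.19. In MOLT-4, REL ranged from -0.14 to 0.13, RELB from -0.072 to 0.13, NFKBIE from -0.11 to 0.090 and CD28 from -0.14 to 0.16. The difference of the responses ranged from -0.051 to 0.026 for RELA, -0.096 to 0.15 for RELB, -0.18 to 0.096 for NFKB1, -0.18 to 0.031 for NFKB2, -0.095 to 0.066 for NFKBIA, -0.0081 to 0.19 for NFKBIE and -0.37 to 0.082 for BIRC3.

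Whether libraries with the same replicate number belong together is not stated in the labels. With 2 pairs per line, replicate differences correlated at 0.14 (DND-41) and 0.15 (MOLT-4), which neither establishes nor excludes pairing. The block left 4, 3 and 2 of the 10 genes called. With MOLT-4 reads subtracted from DND-41 DMSO replicate 2, the same counts of 4 and 2 were found. Depth limits NFKBIZ in MOLT-4.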
